A study of Mus musculus with 8 samples.

Results

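Neuropeptides are short signalling peptides that neurons release beside their fast transmitter. The RNA levels of 10 neuropeptide genes are described here: Crh, Nts, Pdyn, Penk, Tac1, Tac2, Cck, Npy, Sst and Vip, chosen by name as peptides of cortex and amygdala. All 10 were found among the 54532 genes of the table of the first experiment and among the 28229 genes of the table of the second. RNA-seq was carried out on brain of C57BL/6 mice on Day 21, with 8 libraries in 4 groups of 2. In the first experiment, mice with photothrombotic stroke (PTS), a small cortical infarct made by light on a circulating dye, and restraint stress (PTS + RS) were compared with mice under restraint stress alone (RS), all from cortex. In the second experiment all mice had PTS + RS. One group was given RGFP109, an inhibitor of the histone deacetylase HDAC3, at 60 mg/kg subcutaneously once a day for 2 weeks (HDAC3 inhibitor), and the other was labelled NaCl, the group that the study's text calls vehicle. In both of these groups, the label gave cortex for replicate 1 and amygdala for replicate 2. Libraries are named here by group and replicate number, such as NaCl 1. The sources used here do not say whether a library held 1 mouse or a pool. The p-values therefore measure the spread between libraries, which may be technical and cannot be taken as the spread between mice. In the second experiment, unless a term was fitted for it, the spread within a treatment group also holds the difference between tissue labels. When the labels are compared, the spread within a label likewise holds the difference between treatments.

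Each neuropeptide gene codes for a precursor protein that is cut in the secretory pathway, packed into dense-core vesicles and released on strong firing, and its peptides act on G protein-coupled receptors. In the cortex, Sst, Vip, Npy and Cck mark classes of inhibitory interneurons, and Cck is made by many pyramidal neurons as well. In the striatum and the central amygdala, projection neurons make Penk, Pdyn and Tac1, and the amygdala also holds neurons that make Crh, Nts and Sst. Transcription of several of these genes responds to cAMP through the cAMP response element (CRE), the binding site of CREB.

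The bases before the start site are shown for Sst, which carries such an element. They are shown too for Cck and Vip, which carry only its half-site (defined below), and for Pdyn, whose level differed widely among the libraries. Promoter entries of RefSeq (GRCm38.p6) were matched for 8 of the 10 members, and the 250 bases before each start were searched. Crh and Penk had no entry and were not searched. The full CRE, TGACGTCA, was in 1 member, Sst, against 1.55% of 32851 promoters. The half-site, TGACG on either strand, was in 5 members, Tac1, Cck, Vip, Nts and Sst, against 17.8% of promoters. In Sst the half-sites lie inside the full element. The windows of Tac1, Nts and Sst overlap annotated exons and are not shown whole, and of the 2 entries of Pdyn the more upstream is shown. The TATA box, TATAAA on the gene's strand, was in 1 member, Vip, 3 times, against 7.59% of promoters. In the lines below, capitals mark the full CRE of Sst, the half-site of Cck (which is on the other strand and so reads CGTCA) and the half-site and TATA boxes of Vip, and the Pdyn window held none of these letters. Counted back from the start site, the full CRE of Sst begins at -48. The half-site begins at -47 in Cck and at -79 in Vip. A match is only a match of letters.
Sst, chr16:23890874-23890903, minus strand: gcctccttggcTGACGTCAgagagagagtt
Cck, chr9:121495695-121495944, minus strand: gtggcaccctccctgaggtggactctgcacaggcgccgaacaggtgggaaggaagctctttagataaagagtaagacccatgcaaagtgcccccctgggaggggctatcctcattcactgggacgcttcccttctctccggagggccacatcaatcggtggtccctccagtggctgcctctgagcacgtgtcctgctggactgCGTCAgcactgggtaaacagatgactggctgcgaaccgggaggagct
Vip, chr10:5638968-5639217, plus strand: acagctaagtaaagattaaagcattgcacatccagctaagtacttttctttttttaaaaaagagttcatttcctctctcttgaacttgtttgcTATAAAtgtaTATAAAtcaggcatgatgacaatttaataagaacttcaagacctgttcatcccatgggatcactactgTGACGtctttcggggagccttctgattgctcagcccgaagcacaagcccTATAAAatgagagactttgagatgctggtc
Pdyn, chr2:129699939-129700188, minus strand: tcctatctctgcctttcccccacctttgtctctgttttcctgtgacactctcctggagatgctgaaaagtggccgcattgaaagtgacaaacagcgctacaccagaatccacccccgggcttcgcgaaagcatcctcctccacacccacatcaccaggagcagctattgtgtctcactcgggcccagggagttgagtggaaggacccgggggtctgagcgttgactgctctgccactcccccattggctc

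Before the members are described, the libraries were checked against lists of region and cell type markers, given as the summed CPM of each list (CPM being counts scaled to the TMM-normalized library size). In the plot of region markers, NaCl 1 stood apart. This library, labelled cortex, held the 13 olfactory bulb markers at a sum of 1766 CPM, against 58.42 to 81.36 in the other 7 libraries, and all 13 were highest there among the 4 libraries of its table. They include Cdhr1, Eomes and Th, at 533.9, 122.0 and 183.7 CPM, genes of the bulb's mitral, tufted and periglomerular cells. The 19 interneuron genes other than peptides summed to 4294 CPM in NaCl 1 and to 1595 to 1844 CPM elsewhere, while the 15 markers of cortical excitatory neurons were lowest there, at 2121 CPM against 2691 to 3607. The libraries labelled amygdala carried the 15 striatal markers at 1737 CPM in HDAC3 inhibitor 2 and 1901 CPM in NaCl 2, against 364.9 to 474.9 CPM in the 6 labelled cortex. The 15 amygdala markers summed to 669.5 and 750.7 CPM in those libraries, to 1239 CPM in NaCl 1 and to 279.4 to 345.8 CPM in the other libraries labelled cortex. A few genes carried these sums. Ppp1r1b, which is on the striatal list as well, had 298.3 and 387.5 CPM in the libraries labelled amygdala, and Meis2 and Tshz1 had 627.6 and 339.6 CPM in NaCl 1. Tfap2d had 18 and 25 counts under the amygdala label, 44 in NaCl 1 and 0 to 2 in the others, and Sim1, a gene of the medial amygdala, had 0 and 3 counts. Without NaCl 1, 4 genes of this list were called higher with the amygdala label and 2 lower. In the first experiment, choroid plexus markers summed to 52.24 CPM in PTS + RS 2 and to 1672 to 3926 CPM in the other 3 libraries. In the second, HDAC3 inhibitor 1 held them at 1552 CPM, against 17.2 to 47.55 CPM in the other 3 libraries. It also held the 13 hippocampus markers at 958.6 CPM against 322.5 to 485.1 CPM. In the first experiment the hippocampus markers summed to 921.7 CPM in PTS + RS 1 and to 1216 to 1308 CPM in the other libraries. HDAC3 inhibitor 1 thus lay within the range of the first experiment for them, across separately normalized tables. The microglia and macrophage list summed to 1496 and 1274 CPM with PTS + RS and to 333.7 and 302.1 CPM with RS, and its 12 genes were all called higher. The part of these differences in the members' values was not tested. The members' results of the second experiment are given with and without NaCl 1, and some genes of the other lists only without it. The total count of a library was between 15902013 and 21712033.

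**Figure D1:**
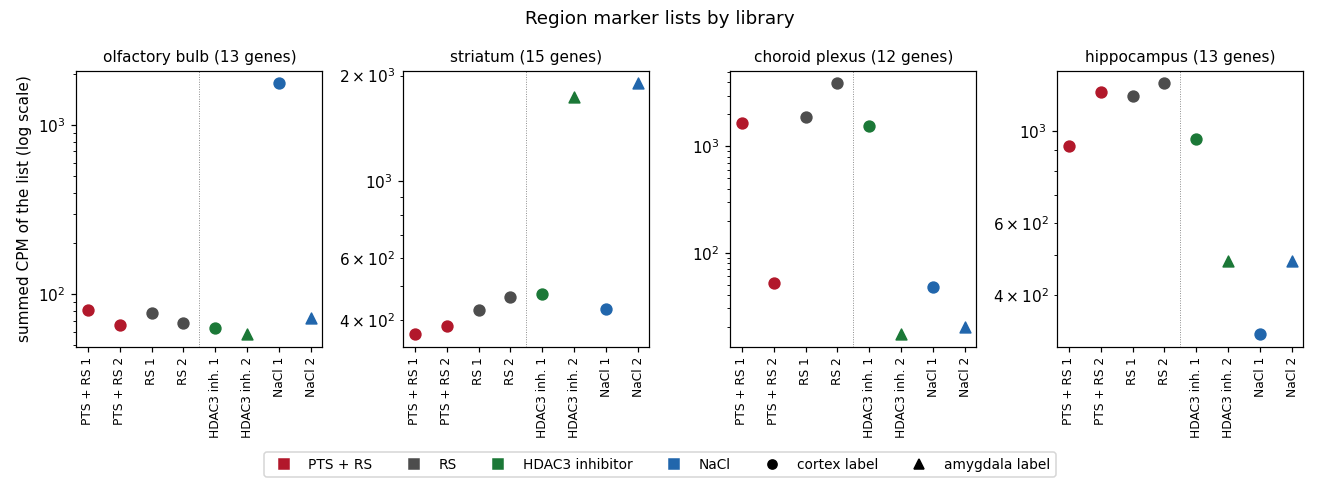
Summed CPM (log scale) of the marker lists of 4 brain regions in each of the 8 libraries, coloured by group, with circles for the cortex label and triangles for the amygdala label. NaCl 1 holds 1766 CPM of olfactory bulb markers, and both libraries labelled amygdala hold the most striatal markers, at 1737 and 1901 CPM.

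The members spanned a wide range of levels. Between genes, levels were compared as the deposited FPKM, which are scaled to gene length. In the 4 libraries of the first experiment, Sst, the peptide of a class of interneurons that inhibit dendrites, was first, at 201.9 to 290.7 FPKM with a median of 233.9. Cck, a peptide of both basket cells and pyramidal neurons, followed at 138.1 to 212.0 FPKM (median 203.9), so the ranges of these neighbours overlapped, although Sst was above Cck within each of the 4 libraries. Npy, which is made together with Sst in many interneurons, came next at 38.41 to 58.36 FPKM (median 52.36) and did not overlap its neighbours on either side. The opioid precursor Penk, source of the enkephalins, had a median of 8.867 FPKM, Nts, source of neurotensin, 6.086 FPKM, and Vip, the peptide of interneurons that inhibit other interneurons, 4.471 FPKM. Below them stood Pdyn, source of the dynorphins, at 3.542 FPKM, Tac1, source of substance P, at 2.159 FPKM, Crh, the stress-related corticotropin-releasing hormone, at 1.704 FPKM, and Tac2, source of neurokinin B, at 1.647 FPKM. Penk did not overlap Nts. Nts was above Vip in each library, by 5.884 against 5.745 FPKM in PTS + RS 1, the closest. Vip and Pdyn exchanged places between libraries, Pdyn was above Tac1 with no overlap, and the last 3 genes overlapped each other. Together Sst, Cck and Npy made the bulk of the members' FPKM, with Sst at 44.2% to 51.0% of the sum and Cck at 34.0% to 40.2%.

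This order was the same at the top in HDAC3 inhibitor 1, where Sst, Cck and Npy had 260.7, 193.2 and 37.36 FPKM and Penk 9.959 FPKM. It differed in the other 3 libraries of the second experiment. In both libraries labelled amygdala, Penk came next after Sst and Cck, at 130.0 FPKM in HDAC3 inhibitor 2 and 136.7 FPKM in NaCl 2, above Npy at 62.12 and 73.5 FPKM. Penk alone made 21.5% and 18.2% of the members' FPKM there, against 1.51% to 1.92% in the 5 libraries labelled cortex other than NaCl 1. In NaCl 1 Cck was first at 125.0 FPKM, followed by Npy at 92.27, Penk at 77.1 and Sst at 58.86 FPKM, with Pdyn last at 0.8762 FPKM. Within a gene, the highest library exceeded the lowest by 1.18 times for Nts to 1.9 times for Vip in the first experiment. In the second the ratio reached 13.8 times for Penk, 13.4 for Pdyn, 5.51 for Crh, 5.3 for Tac1 and 4.63 for Sst.

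**Figure D2:**
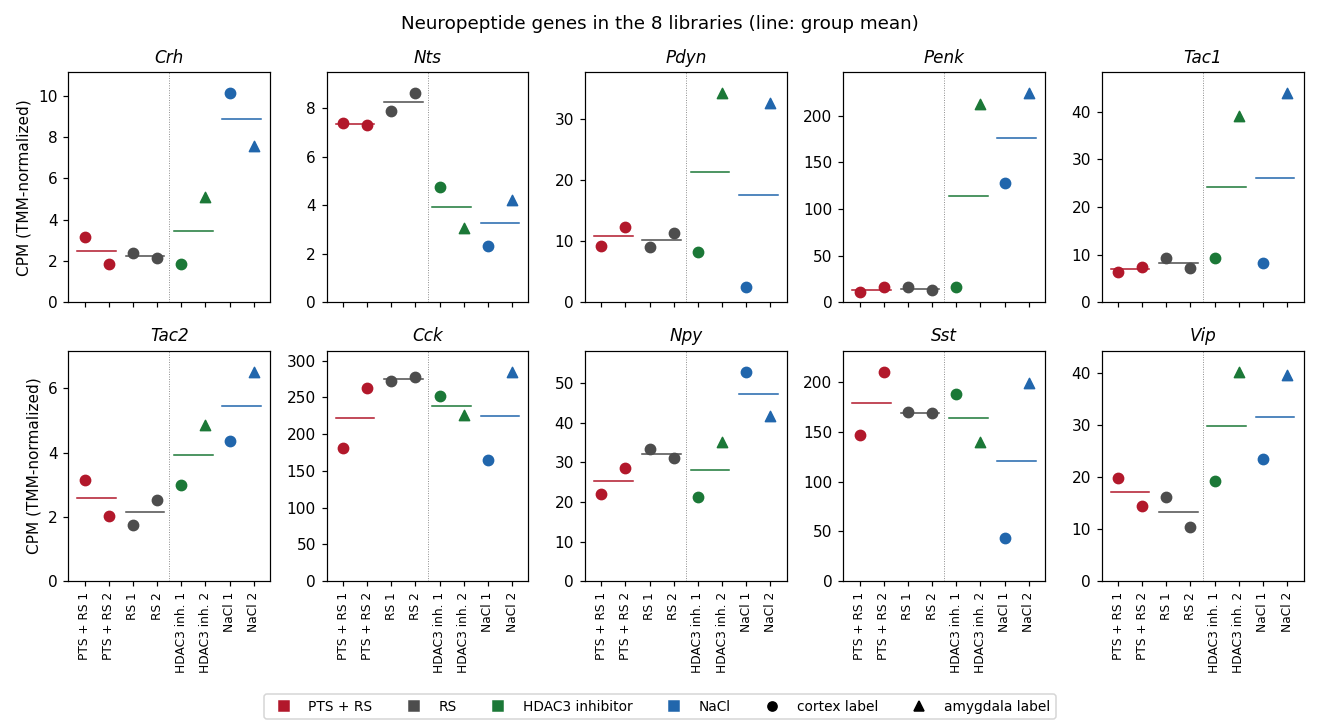
CPM of each of the 10 neuropeptide genes in the 8 libraries, 1 panel per gene with its own linear axis from 0, coloured by group, with circles for the cortex label, triangles for the amygdala label and a line at each group's mean. Penk, Pdyn, Tac1 and Vip are highest in the triangles, and Sst is lowest and Crh and Npy are highest in NaCl 1.

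First, it was asked whether stroke on top of restraint stress changed the members in cortex. None of the 10 was called between PTS + RS and RS by edgeR (a call takes a log2 size of 1 or more with adjusted p under 0.05), while 389 of 17581 tested genes (2.21%) were, 373 higher and 16 lower. The members' log2 fold changes lay between -0.35 and 0.35, with 5 above and 5 below 0. At the unadjusted p under 0.05 there was 1 member, Npy, a share below the 17.9% of all tested genes. DESeq2 and limma-voom called 0 members too, each with 1 at the unadjusted p, Cck by DESeq2 and Npy by limma-voom, against calls of 2.51% and 1.85% of genes.

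Npy, an anxiolytic peptide that also restrains neuronal firing, had 21.95 and 28.43 CPM in the PTS + RS libraries and 33.22 and 31.11 CPM in the RS libraries. Both PTS + RS libraries were below both RS libraries. The difference on the log2 scale was -0.35 (SE 0.142, n = 2 against 2, adjusted p = 0.26 by edgeR). Cck had 181.9 and 262.4 CPM with PTS + RS and 272.8 and 277.7 CPM with RS, and again the groups did not overlap. Its log2 fold change was -0.31 (SE 0.157, adjusted p = 0.36). By edgeR with no filter on counts it was -0.32 (adjusted p = 0.015), short of the fold threshold. PTS + RS 1 was the library furthest from RS for Npy and Cck alike. Without PTS + RS 2 the log2 fold changes were -0.60 for Cck and -0.55 for Npy, short of the fold threshold. Without PTS + RS 1 they were -0.07 and -0.18. Those fits called 4.03% and 3.18% of genes and no member. Nts had 7.413 and 7.301 CPM with PTS + RS and 7.891 and 8.645 CPM with RS, a log2 fold change of -0.17 (SE 0.174, adjusted p = 0.68). Its groups were close but apart. The members whose libraries did not overlap were thus 3, all lower with PTS + RS, where 50.2% of all tested genes did not overlap and 24.5% were lower in this sense.

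Vip had the largest fitted rise, with 19.73 and 14.36 CPM against 16.22 and 10.41 CPM. The groups overlapped, and the log2 fold change of 0.35 (SE 0.245) had an adjusted p of 0.51. Sst had 147.0 and 210.6 CPM with PTS + RS and 169.8 and 169.0 CPM with RS, so that the RS libraries lay between the PTS + RS libraries (0.08, SE 0.154, adjusted p = 0.85). Its log2 fold change was 0.31 without PTS + RS 1 and -0.21 without PTS + RS 2. Among the peptides of projection neurons, Penk was at -0.08 (SE 0.202), Pdyn at 0.08 (SE 0.207) and Tac1 at -0.27 (SE 0.204) on the log2 scale, with overlapping groups. Crh and Tac2 rested on the fewest reads, with 31 to 54 and 32 to 54 counts per library, and their log2 fold changes of 0.15 (SE 0.346) and 0.28 (SE 0.353) had the widest errors. A member that moved by less than 1 on the log2 scale could not be called by this rule. In bulk tissue, fewer cells of a type and less RNA per cell cannot be told apart.

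The 15 activity-regulated genes were set beside the members because peptide genes respond to firing. Like the other lists, they were chosen with earlier results of these data known. All had fitted values below 0 in this comparison, with a median log2 fold change of -0.51 against -0.002 over all tested genes. None was called, and 10 had an unadjusted p under 0.05, as did 17.9% of all tested genes.

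**Figure D3:**
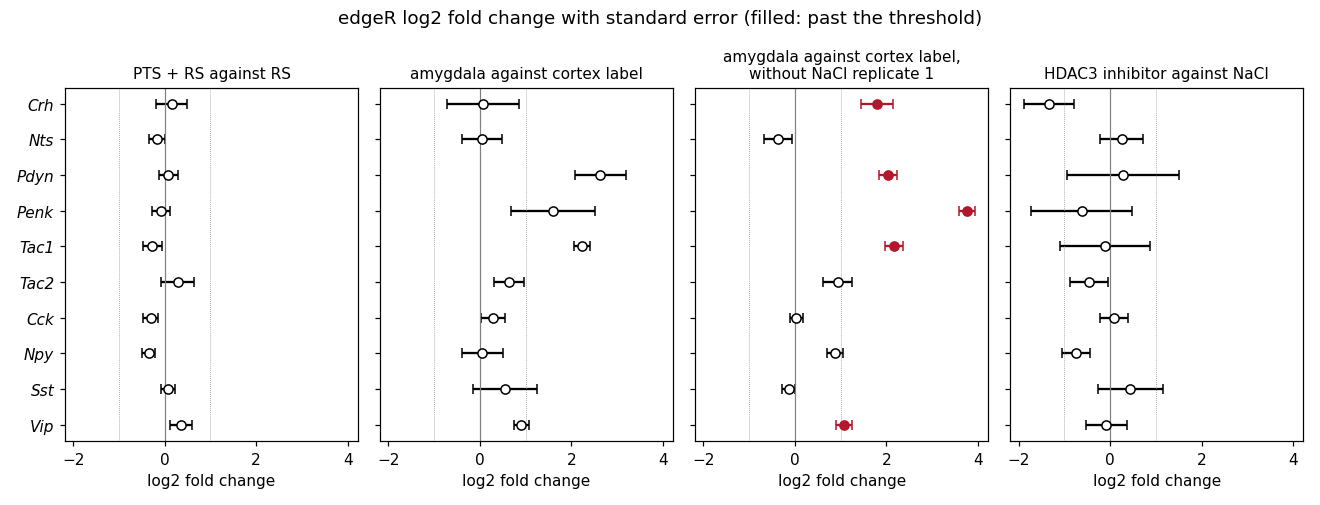
Log2 fold change (horizontal axis) with its standard error from edgeR for the 10 genes in 4 fits, filled red where past the threshold and open where not, with dotted lines at the fold threshold. No gene is past it in the fits on all libraries of an experiment, and 5 are past it for amygdala against cortex label without NaCl 1.

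The second experiment allowed the levels to be set side by side by tissue label. Penk, Pdyn and Tac1, which striatal and central amygdala projection neurons make, were highest in the libraries labelled amygdala, as were Vip and Tac2. Crh, Nts and Sst, which amygdala neurons also make, overlapped between the labels. The libraries labelled amygdala also carried the striatal markers given above. Fitted over all 4 libraries, the 10 members were above 0 in each case, with a median log2 fold change of 0.59 against -0.029 over all genes. None was called by edgeR, and neither was any other of 17565 genes (0.0%), although 1970 genes and 3 members, Tac1, Pdyn and Vip, had an unadjusted p under 0.05. DESeq2 called Pdyn and Tac1 among 349 genes (1.99%), edgeR without the filter on counts called Tac1 among 13 genes (0.0461%), and limma-voom called none. For 5 members, Pdyn, Penk, Tac1, Tac2 and Vip, both libraries labelled amygdala were above both labelled cortex, where 44.0% of genes did not overlap and 21.6% were higher.

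Tac1 had 39.03 CPM in HDAC3 inhibitor 2 and 43.99 CPM in NaCl 2, against 9.387 CPM in HDAC3 inhibitor 1 and 8.305 CPM in NaCl 1. The groups were far apart and each was tight, since NaCl 1 did not stand out for this gene. By edgeR the log2 fold change was 2.23 (SE 0.174, adjusted p = 0.13), and it was 2.16 (SE 0.192, adjusted p = 5e-12) without NaCl 1. In that fit HDAC3 inhibitor 1 is the lone cortex library and is assumed to vary like the others, the spread coming from the pair labelled amygdala, which differ in treatment. The lone library carried the choroid plexus and hippocampus markers given above, and in this fit 12 of 12 choroid plexus genes and 7 of 13 hippocampus genes were called lower with the amygdala label, and 5 of 7 blood genes and 13 of 15 striatal genes higher. Their part in the members' values was not tested. The fit called 1141 of 18613 genes (6.13%), 744 of them higher (4.0%), and 5 members, all higher.

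Penk had 212.3 and 224.3 CPM in the libraries labelled amygdala, 127.5 CPM in NaCl 1 and 16.3 CPM in HDAC3 inhibitor 1. NaCl 1 was thus nearer to the libraries labelled amygdala than to the other library of its own label, and no library of the first experiment exceeded 16.1 CPM. The fitted log2 difference was 1.6 (SE 0.918, adjusted p = 0.59) with NaCl 1 and 3.76 (SE 0.177, adjusted p = 3.1e-21) without it. Without HDAC3 inhibitor 1 it was 0.78 (SE 0.141, adjusted p = 4.6e-06), under the fold threshold. Pdyn had 34.21 and 32.51 CPM under the amygdala label, 8.245 CPM in HDAC3 inhibitor 1 and 2.56 CPM in NaCl 1, where its count was 45. NaCl 1 was the lowest of all 8 libraries for Pdyn. Its log2 fold change was 2.63 (SE 0.56, adjusted p = 0.29) over the 4 libraries, and 2.03 (SE 0.197, adjusted p = 5.6e-11) when NaCl 1 was left out. The opioid precursors thus lay on opposite sides in NaCl 1, Penk high and Pdyn low.

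Vip had 40.24 and 39.58 CPM in the libraries labelled amygdala, and 19.22 and 23.38 CPM in HDAC3 inhibitor 1 and NaCl 1. These groups did not overlap and neither was wide. Its log2 fold change of 0.91 (SE 0.168, adjusted p = 0.28) became 1.07 (SE 0.172, adjusted p = 7.4e-06) without NaCl 1. Tac2 had 4.861 and 6.524 CPM against 2.981 and 4.38 CPM, with 47 to 120 counts per library. The log2 fold change was 0.63 (SE 0.329, adjusted p = 0.56), and 0.94 (SE 0.316, adjusted p = 0.038) without NaCl 1, under the fold threshold.

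For Crh and Sst the call and the direction turned on 1 library. Crh had 5.094 CPM in HDAC3 inhibitor 2, 7.558 CPM in NaCl 2, 1.839 CPM in HDAC3 inhibitor 1 and 10.13 CPM in NaCl 1. It was highest in NaCl 1, and the other 5 libraries labelled cortex lay at 1.839 to 3.152 CPM. Its log2 fold change was 0.07 (SE 0.791, adjusted p = 0.98) over the 4 libraries, 1.79 (SE 0.346, adjusted p = 0.00015) without NaCl 1 and -0.68 (SE 0.246, adjusted p = 0.028) without HDAC3 inhibitor 1. Sst had 139.6 and 198.8 CPM in HDAC3 inhibitor 2 and NaCl 2, 188.3 CPM in HDAC3 inhibitor 1 and 42.95 CPM in NaCl 1, the lowest of the 8 libraries. Its log2 fold change was 0.55 (SE 0.698, adjusted p = 0.82), -0.14 (SE 0.151, adjusted p = 0.65) without NaCl 1 and 1.98 (SE 0.168, adjusted p = 2.6e-17) without HDAC3 inhibitor 1. The fit without HDAC3 inhibitor 1 called 2512 genes (13.4%) and 3 members, Pdyn, Sst and Tac1.

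Npy likewise moved with either library labelled cortex, with 35.15 and 41.76 CPM under the amygdala label, 21.18 CPM in HDAC3 inhibitor 1 and 52.84 CPM in NaCl 1. The log2 fold change of 0.05 (SE 0.448) became 0.87 (SE 0.173, adjusted p = 0.00021) without NaCl 1 and -0.46 (SE 0.156, adjusted p = 0.02) without HDAC3 inhibitor 1, both under the fold threshold. Cck, at 225.5 and 285.1 CPM against 252.5 and 165.0 CPM, went from 0.29 (SE 0.266) to 0.03 (SE 0.137) without NaCl 1 and to 0.63 (SE 0.141) without HDAC3 inhibitor 1, and was called in none of these fits. Nts, at 3.085 and 4.241 CPM against 4.757 and 2.332 CPM, went from 0.05 (SE 0.444) to -0.37 (SE 0.312, adjusted p = 0.54). For Nts all 4 libraries lay below the 7.301 to 8.645 CPM of the first experiment, a level set across separately normalized tables.

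The same contrast was then read within each treatment, with 1 library of each label and no test. Within the HDAC3 inhibitor group 5 members differed by at least 1 on the log2 scale, as did 9.8% of genes. The ratio of HDAC3 inhibitor 2 to HDAC3 inhibitor 1 was 13.0 for Penk (95% exact counting interval 11.5 to 14.8), 4.16 for Tac1 (3.49 to 4.99), 4.15 for Pdyn (3.44 to 5.04), 2.77 for Crh (1.82 to 4.33) and 2.09 for Vip (1.83 to 2.39), all higher under the amygdala label. Within the NaCl group 3 members did, as did 17.4% of genes, with ratios of NaCl 2 to NaCl 1 of 12.7 for Pdyn (9.37 to 17.6), 5.3 for Tac1 (4.44 to 6.36) and 4.63 for Sst (4.28 to 5.01), and Penk was at 1.76 (1.67 to 1.85). Such intervals cover counting error only. Tac1 and Pdyn were thus the members with a ratio past this size within both treatments.

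The question of the second experiment was whether the HDAC3 inhibitor changed expression in PTS + RS mice. It used the same 4 libraries as the comparison by tissue label, so the results are not independent of each other. No member was called, with 0 at an unadjusted p under 0.05 by edgeR and 1 by DESeq2, Crh. Of 17565 genes 0 were called (0.0%), 206 had an unadjusted p under 0.05 by edgeR and 433 by DESeq2, and DESeq2 and limma-voom called 0 as well. The standard errors of the members ran from 0.306 to 1.23 on the log2 scale, and each group held 1 library of each tissue label.

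Crh had 1.839 and 5.094 CPM with the inhibitor and 10.13 and 7.558 CPM with NaCl. Both inhibitor libraries were below both NaCl libraries. Its fitted difference was -1.34 on the log2 scale (SE 0.551, adjusted p = 1.0) by edgeR and -1.33 (SE 0.614, adjusted p = 1.0) by DESeq2. Npy, at 21.18 and 35.15 CPM against 52.84 and 41.76 CPM, did not overlap either, with a log2 fold change of -0.75 (SE 0.306, adjusted p = 1.0). For both genes NaCl 1 was the highest library and HDAC3 inhibitor 1 the lowest. These were the 2 members without overlap, both lower, where 26.6% of genes did not overlap and 13.8% were lower. Without NaCl 1 the log2 fold changes were -1.11 (SE 0.657, adjusted p = 1.0) for Crh and -0.57 (SE 0.351, adjusted p = 1.0) for Npy. In that fit the 10 members were all below 0, with a median of -0.59 against 0.004 over all genes, and none was called. In the fit without NaCl 2, 93 genes (0.5%) and again no member were called. With NaCl 1 left out, NaCl 2, labelled amygdala, was the lone NaCl library and was set against 1 library of each label.

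Within a tissue label, 1 library stood against 1, with no replicate check. Under the cortex label 5 members differed by at least 1 on the log2 scale, as did 15.5% of genes. The ratios of HDAC3 inhibitor 1 to NaCl 1 were 0.128 for Penk (0.112 to 0.146, on 257 and 2241 counts), 0.182 for Crh (0.118 to 0.27), 0.401 for Npy (0.353 to 0.455), 4.38 for Sst (4.05 to 4.76) and 3.22 for Pdyn (2.28 to 4.63). For each of these genes NaCl 1 lay outside the range of the other libraries labelled cortex, as it did for the other members except Tac1. The part of this in the ratios was not tested. Nts had a ratio of 2.04 (1.38 to 3.06) on 75 and 41 counts, which a prior count of 2, used for counting the members past this size, brought just under it. Tac1, in contrast, had a ratio of 1.13 (0.893 to 1.43).

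Under the amygdala label no member differed by that much, and 2.84% of genes did. The ratio of HDAC3 inhibitor 2 to NaCl 2 was 0.674 for Crh (0.52 to 0.872, on 109 and 139 counts), 0.702 for Sst (0.669 to 0.737), 0.791 for Cck (0.76 to 0.823) and 0.842 for Npy (0.76 to 0.932). It was close to 1 for Penk at 0.947 (0.907 to 0.987), Pdyn at 1.05 (0.943 to 1.17) and Vip at 1.02 (0.92 to 1.12). Sst, Cck, Nts and Tac1 thus had ratios above 1 under the cortex label and below 1 under the amygdala label, where the intervals of Nts (0.516 to 1.02) and, under cortex, Tac1 held 1. The difference between labels was not tested.

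**Figure D4:**
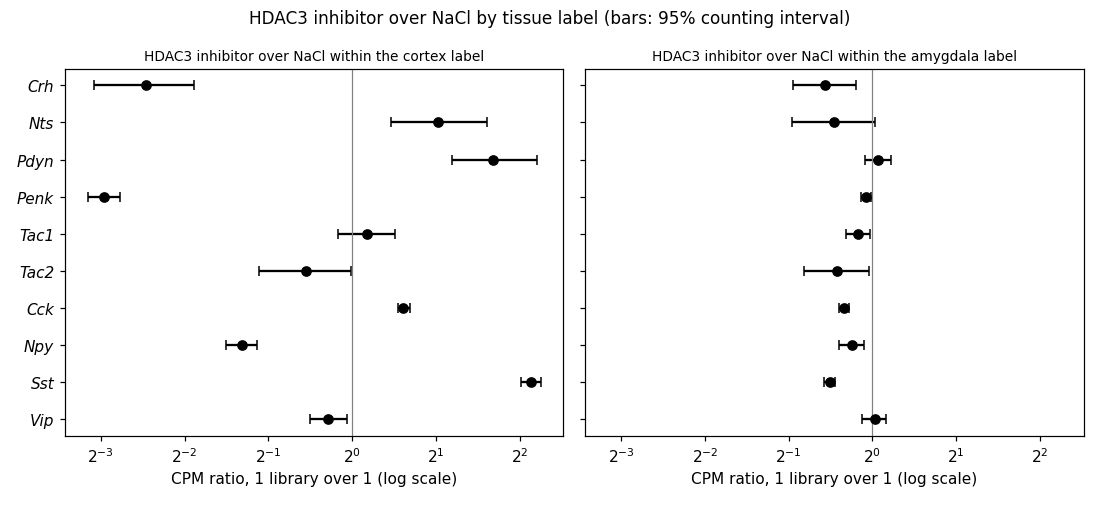
Ratio of CPM, HDAC3 inhibitor over NaCl (log axis to base 2), for the 10 genes with 1 library of each under the cortex label (left) and the amygdala label (right), with 95% exact counting intervals. The ratios run from 0.128 to 4.38 on the left and from 0.674 to 1.05 on the right.

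The receptors of these peptides were followed as a list of 23 genes. Of 20 tested receptors edgeR called none in any of the 3 comparisons, with 2, 1 and 3 at an unadjusted p under 0.05 and medians of -0.14 for PTS + RS against RS, 0.28 for HDAC3 inhibitor against NaCl and 0.12 for amygdala against cortex label. In the first, the receptor with the lowest adjusted p was Sstr4, a somatostatin receptor, with 18.39 and 22.32 CPM in PTS + RS and 28.09 and 33.57 CPM in RS (log2 fold change -0.60, SE 0.146, adjusted p = 0.081). Crhr2, one of the receptors of the Crh family, was at -1.48 (SE 0.439, adjusted p = 0.14 by edgeR) and was called by DESeq2. It had 3.21 and 1.436 CPM against 4.58 and 8.518 CPM, the order in which the choroid plexus sums of the same libraries run. The part of those markers in the values of Crhr2 was not tested.

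By tissue label without NaCl 1, 6 of 22 tested receptors were called, 4 higher and 2 lower. The receptors called higher with the amygdala label were Oprk1, the dynorphin receptor, Oprm1, the mu opioid receptor (log2 fold change 2.06), Tacr1, the substance P receptor (1.76), and Cckbr, the brain-type cholecystokinin receptor (1.54), and those called lower were Npy2r and Crhr2 (-1.37). Oprk1 had 13.74 and 13.43 CPM in the libraries labelled amygdala, 1.966 CPM in HDAC3 inhibitor 1 and 3.185 CPM in NaCl 1, so that it was high in the same libraries as its ligand Pdyn, and its log2 fold change was 2.8 (SE 0.29, adjusted p = 3.5e-10). With NaCl 1 it was 2.39 (SE 0.307, adjusted p = 0.21), and DESeq2 called it. Npy2r, a presynaptic receptor of Npy, had 51.18 CPM in HDAC3 inhibitor 1, 46.69 to 58.95 CPM in the first experiment, and 7.805, 7.558 and 2.73 CPM in HDAC3 inhibitor 2, NaCl 2 and NaCl 1. It fell by 2.72 on the log2 scale (SE 0.174, adjusted p = 1.6e-16) without NaCl 1, and with it the log2 fold change was -1.81 (SE 1.24, adjusted p = 0.65). The hippocampus markers were high in HDAC3 inhibitor 1 and in the first experiment as well, and their part was not tested.

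In NaCl 1 some receptors stood apart, not always together with their ligands. Crhr1, the main receptor of Crh, had 72.3 CPM there and 9.216 to 20.17 CPM in the other libraries, the same library in which Crh was highest. Vipr2, a receptor of Vip, had 70.19 CPM there and at most 1.712 CPM elsewhere, while Vip itself was at 23.38 CPM, between the other libraries. Cckbr had 53.98 CPM in NaCl 1, near the 48.05 and 46.54 CPM of the libraries labelled amygdala, and 7.959 to 19.5 CPM in the others. Tacr1 had 10.64 CPM in NaCl 1, above the 6.683 and 9.134 CPM of the libraries labelled amygdala. Oprm1, at 0.967 CPM in NaCl 1, was below their 3.272 and 2.501 CPM.

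**Figure D5:**
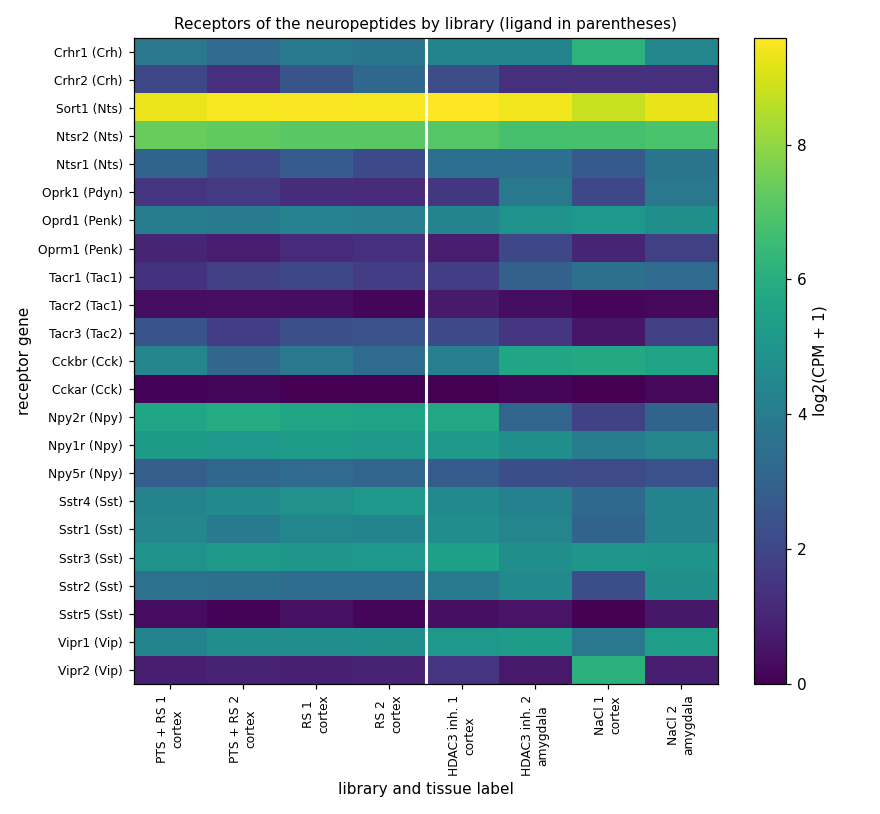
Log2(CPM + 1) of 23 receptor genes (rows, with the ligand's gene in parentheses) in the 8 libraries (columns, with the tissue label), from dark (low) to yellow (high). Vipr2 and Crhr1 are brightest in NaCl 1, Oprk1 in the libraries labelled amygdala, and Npy2r is dark in these and in NaCl 1.

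Genes that make, store and break down peptides were followed as lists. Of 16 genes of peptide processing and dense-core vesicles, 0 were called in the 3 comparisons by edgeR or DESeq2, with 3, 1 and 3 by edgeR at an unadjusted p under 0.05 in the order given above for the receptors. Without NaCl 1, Sv2c, a vesicle protein, was called higher with the amygdala label at a log2 fold change of 1.27. In NaCl 1 it had 85.67 CPM, above the 82.54 and 81.99 CPM of the libraries labelled amygdala. Of 10 peptide-degrading enzymes and binding proteins, 0 were called in the 3 comparisons by edgeR, with 2, 0 and 2 at an unadjusted p under 0.05, and DESeq2 called Mme by tissue label. Mme, the enzyme neprilysin that breaks down enkephalins and substance P, was called higher without NaCl 1 at 1.35 (SE 0.204, adjusted p = 2.2e-06), with 25.33 and 22.73 CPM against 9.514 CPM in HDAC3 inhibitor 1 and 8.646 CPM in NaCl 1. Mme was thus high in the libraries in which Penk and Tac1 were highest. Dpp4, a peptidase that trims Npy, was called higher at 1.07 and Ace, which choroid plexus expresses as well, lower at -1.17. NaCl 1, which this fit leaves out, had 4.551 CPM of Dpp4, between the 5.795 and 3.969 CPM under the amygdala label. Its Ace, at 15.47 CPM, was below the 28.23 and 28.71 CPM under that label. Of 19 interneuron genes other than peptides, Calb2 at -1.15 and Nos1 at -1.07 were called lower with the amygdala label in this fit, and none higher.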

How the data were processed

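RNA-seq of 8 brain libraries was used, 4 in each of 2 tables. By the study's methods, the authors aligned reads to GRCm38 with STAR 2.4.0 and counted reads per gene with HTSeq 0.6.1. The deposited counts are raw. The deposited FPKM were computed by the authors from the counts and gene lengths, and were used only to compare genes. Whether counting used strand is not given in the sources used here. The authors also deposited fold changes, p-values and normalized signals (8 columns of single samples and 4 of group means), which were not used.

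Genes were filtered with filterByExpr, normalized by TMM and compared with the quasi-likelihood test of edgeR 4.0.16 (R 4.3.3), adjusted by Benjamini-Hochberg over all tested genes within each table. Calls required an adjusted p under 0.05 together with a log2 size of 1 or more. SE is the log2 fold change divided by the root of F. Alternatives were DESeq2 1.42.0, limma-voom (limma 3.58.1), no filter, the replicate number or treatment as a term, and leaving out each library. Single-library log2 ratios used a prior count of 2. Values were tabulated with Python 3.11.15 (pandas 2.3.3) and plotted with matplotlib 3.10.9. The edgeR test was checked on simulated counts drawn with a common dispersion for all genes. That check held no difference of tissue labels within a group and no fit with a library left out. Counts on genes reached 15902013 to 21712033 per library, and the number of libraries limits precision more than this depth. The members and the 21 gene lists beside them were chosen with earlier results of these data known. All 10 members and all 23 receptors were followed, and other genes of a list were named where they were called or where they stood apart in 1 library, the latter chosen after their values were seen. A result of the interneuron list for PTS + RS against RS is not reported here.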

Additional observations from a re-analysis of the deposited data

Results flagged for a closer look

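For 2 genes the inhibitor went in opposite directions under the tissue labels. The log2 ratio of HDAC3 inhibitor to NaCl was 1.0 for Nts under the cortex label and -0.45 under the amygdala label, and for Sst it was 2.13 and -0.51. Each value sets 1 library against 1, and the difference between labels was not tested. In both genes NaCl 1 was the lowest of the 8 libraries, at 2.332 CPM of Nts and 42.95 CPM of Sst. It is the library with the olfactory bulb markers, whose part in these ratios was not tested. Cck (0.61 and -0.34), Tac1 (0.17 and -0.17) and Vip (-0.28 and 0.02) also had opposite signs, with a smaller gap.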

How the results depend on the processing

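For PTS + RS against RS, 0 members were called in any alternative run. The count of all genes called was 759 with no filter against 389, 475 with the replicate block (443 higher, 32 lower), and 323 to 740 when 1 library was left out. Leaving out 1 library gave log2 fold changes of -0.29 to 0.47 for Crh, -0.15 to 0.28 for Pdyn, -0.35 to 0.14 for Penk, -0.07 to 0.56 for Tac2 and -0.21 to 0.31 for Sst, each turning the direction, and the other 5 members kept theirs.

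For amygdala against cortex label, DESeq2 called 2 members (Pdyn at 2.63, Tac1 at 2.24) among 349 genes, no filter called 1 (Tac1 at 2.24) among 13 genes, and leaving out 1 library called 0 to 5 members and 0 to 2512 genes. The most members were called without NaCl replicate 1. Leaving out 1 library gave -0.68 to 1.79 for Crh, -0.37 to 0.65 for Nts, -0.46 to 0.87 for Npy and -0.14 to 1.98 for Sst, which turned the direction. Within NaCl alone the log2 ratio was -0.42 for Crh and -0.34 for Npy, and within the HDAC3 inhibitor -0.61 for Nts, -0.16 for Cck and -0.43 for Sst, against positive values over the 4 libraries. Treatment as a term called none.

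For HDAC3 inhibitor against NaCl, 0 members were called in any alternative, and 0 genes except without NaCl replicate 2, where the range over left-out libraries reached 93. Leaving out 1 library gave -0.13 to 0.75 for Nts, -1.09 to 3.07 for Pdyn, -3.43 to 0.27 for Penk, -1.48 to 1.56 for Tac1, -0.26 to 0.54 for Cck, -0.29 to 1.94 for Sst and -0.71 to 0.36 for Vip. Tac1 was 0.07 by limma-voom and 0.17 within the cortex label, against -0.11. Within the amygdala label Nts was -0.45, Cck -0.34, Sst -0.51 and Vip 0.02, each with the sign opposite to the fit on 4 libraries. The cause was not tested.

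The replicate numbers of the second experiment are its tissue labels, and the deviations of same-numbered libraries correlated at 0.299. With the replicate block Crh was -1.47 (adjusted p = 1.0 by edgeR), Penk -1.5 and Pdyn 0.81, and no call changed. In the first experiment the numbers had a correlation of 0.0352 and mark nothing in the labels. With 2 libraries a group, tissue label, NaCl 1 and treatment can be separated only by single libraries.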

Other observations

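Other neuropeptide precursors were followed as a list of 29 genes, of which 11 to 13 had enough counts to be tested in a fit. None was called in the fits on all 4 libraries of an experiment, where at an unadjusted p under 0.05 there was 1 gene for PTS + RS against RS and 0 in the other comparisons by edgeR. Without NaCl 1, the amygdala label had 4 genes called higher and 1 lower. Cartpt, a precursor linked to feeding and reward, had 5.936 and 9.243 CPM in the libraries labelled amygdala. It had 2.347 CPM in HDAC3 inhibitor 1 and 8.931 CPM in NaCl 1, and its log2 fold change was 1.7. Adcyap1, source of PACAP, had 12.9 and 16.47 CPM against 4.376 CPM in HDAC3 inhibitor 1 and 20.36 CPM in NaCl 1 (1.76). NaCl 1 was thus within the range of the libraries labelled amygdala for Cartpt and above it for Adcyap1. Grp, source of gastrin-releasing peptide, was lower, at 4.907 and 6.579 CPM against 20.87 CPM in HDAC3 inhibitor 1 (-1.85). HDAC3 inhibitor 1, the lone cortex library of this fit, also held the most hippocampus and choroid plexus markers of its table, whose part was not tested. Trh, thyrotropin-releasing hormone, had 7.385 and 6.796 CPM against 0.1903 CPM, and Avp, vasopressin, rested on few reads, at 0.2804 and 2.719 CPM with HDAC3 inhibitor 1 at 0 counts.

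NaCl 1 held the highest levels of several of these precursors. Trh was at 62.51 CPM there and at most 7.385 CPM elsewhere, and Nmb, source of neuromedin B, at 32.31 CPM against 1.83 to 3.094 CPM, and both are on the list of olfactory bulb markers. Grp went the other way, at 0.6826 CPM in NaCl 1 against 4.907 to 20.87 CPM. Activity-regulated genes summed to 1546 to 1680 CPM in NaCl 1 and the libraries labelled amygdala, 839.7 CPM in HDAC3 inhibitor 1 and 494.4 to 830.5 CPM in the first experiment. Without NaCl 1, 7 of the 15 were called higher with the amygdala label, among them Egr2 at 2.18, Nptx2 at 1.93 and Homer1 at 1.62 on the log2 scale.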
